A study of Mus musculus with 6 samples.

Results

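The Nr4a family of orphan nuclear receptors, encoded by Nr4a1, Nr4a2 and Nr4a3, was examined in the soleus of mice bred to lack the G protein subunit gene Gna13 in skeletal muscle. The 3 genes were taken by symbol from the array annotation and make up 3 of the 23152 genes measured. The family was chosen by its measured values in these same arrays, since Nr4a1 and Nr4a2 stood among the lowest differences between knockout and control. The differences of the members between the groups are therefore given as a description, with no test. The knockout mice (MKO) were male, 18 weeks old and Ckmm-Cre; Gna13 flox/flox, so that Cre recombinase is driven by the muscle creatine kinase promoter. The control mice (WT) were male, 18 weeks old and Gna13 flox/flox, carrying the same floxed alleles without Cre. Both groups had been fasted overnight for 14 h, and each of the 3 mice per group gave 1 array of total RNA from soleus, a hindlimb muscle rich in slow fibres. No group carried Ckmm-Cre without floxed alleles, so Cre and loss of Gna13 cannot be told apart. Muscles were snap-frozen at sacrifice, per the design text. Values are on the log2 scale after robust multi-array averaging (RMA), a method that removes background, brings the arrays to a shared distribution and combines probes into probe sets. A gene's value is the mean over its probe sets.

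Nr4a receptors are immediate early genes: their transcripts appear quickly after a stimulus and decay quickly. They have no known classical hormone, since bulky side chains fill the ligand pocket, so the amount of receptor made is a main control of their activity. In skeletal muscle they are known to be induced by exercise and by beta-adrenergic stimulation through cAMP and the transcription factor CREB, and they act on genes of glucose and lipid use. Nr4a1 (Nur77) and Nr4a2 (Nurr1) can pair with the retinoid X receptor, whereas Nr4a3 (NOR-1) does not, and all of them can bind DNA as monomers at the NBRE element.

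The bases upstream of the annotated starts are shown because CREB acts on this family through short cAMP response elements (CRE) near the start. The windows are from RefSeq on build GRCm38.p6, are written 5′ to 3′ on the strand of the gene, and end at the base before the start. Capitals mark the CRE core TGACG on either strand, which reads CGTCA when it lies on the opposite strand. The windows are chr15:101266596-101266845 on the plus strand for Nr4a1, chr2:57124004-57124253 on the minus strand for Nr4a2 and chr4:48045055-48045304 on the plus strand for Nr4a3. RefSeq also annotates transcripts of Nr4a1 and Nr4a3 that start further upstream, so that 250 and 227 bases of these windows lie within the annotated gene, against 0 for Nr4a2.
Nr4a1: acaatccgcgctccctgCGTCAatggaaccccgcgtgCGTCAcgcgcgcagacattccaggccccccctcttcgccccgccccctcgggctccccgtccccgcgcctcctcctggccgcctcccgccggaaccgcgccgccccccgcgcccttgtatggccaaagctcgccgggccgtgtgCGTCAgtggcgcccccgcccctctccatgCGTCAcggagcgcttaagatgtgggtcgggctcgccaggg
Nr4a2: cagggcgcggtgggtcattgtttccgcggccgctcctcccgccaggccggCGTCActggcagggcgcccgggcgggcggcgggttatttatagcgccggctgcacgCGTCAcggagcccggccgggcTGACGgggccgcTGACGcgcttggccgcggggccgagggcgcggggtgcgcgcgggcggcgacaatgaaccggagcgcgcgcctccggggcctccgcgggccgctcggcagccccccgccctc
Nr4a3: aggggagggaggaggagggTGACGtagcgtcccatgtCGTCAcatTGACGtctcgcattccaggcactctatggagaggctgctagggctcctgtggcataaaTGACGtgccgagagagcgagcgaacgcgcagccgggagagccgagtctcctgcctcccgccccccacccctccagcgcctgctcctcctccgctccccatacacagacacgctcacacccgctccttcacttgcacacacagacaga

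Each of the 3 windows held 4 CRE cores. In Nr4a1 all of them lay on the strand opposite to the gene, and the core nearest the start spanned 40 to 36 bases upstream of it. In Nr4a2 the nearest core lay 111 to 107 bases upstream, and in Nr4a3 147 to 143 bases upstream. At least 1 core was found in 17.7% of all 32817 windows of this length in the table, and 45 windows, or 0.137%, held at least 4. The core contains a CG step, and the windows were GC-rich, at 74.4% for Nr4a1, 80.0% for Nr4a2 and 63.6% for Nr4a3, against a median of 52.4%. Among the 6578 windows with at least the GC content of Nr4a3, 0.38% held 4 or more cores. The full palindrome TGACGTCA was in none of the 3 windows and in 1.55% of all windows. The NBRE letters AAAGGTCA were also in none of them, against 1.34% of all windows. The CArG box of serum response factor (1.47%) and a strict form of the MEF2 site (0.509%) were absent from them too. Looser forms of the MEF2 site were not counted, and the Nr4a2 window holds a run that fits such a form, TTATTTATAG. Within that run, on the opposite strand, lie the TATA box letters TATAAA, 164 to 159 bases upstream. Those letters were in 12.4% of all windows. The Sp1 box GGGCGG occurred 3 times for Nr4a1, 4 times for Nr4a2, where 2 copies share bases, and once for Nr4a3, with 32.7% of all windows holding at least 1. Both strands were searched, and a full palindrome would count as 2 overlapping cores. These letters were chosen with the windows in view, and a match is a description of the sequence only.

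The median value of all rows lay between 4.87 and 4.95 on the 6 arrays. Gna13 itself was read by 7 probe sets. Probe set 17257825 stood at 4.0 ± 0.50 in MKO and 5.96 ± 0.41 in WT (SD, n = 3 each), with every MKO array below every WT array, whereas 3 other probe sets lay higher in every MKO array. Over all probe sets, 5.21% lay lower and 4.69% higher in every MKO array. The sources used here do not say which exons the Gna13 probe sets read. By limma with Benjamini-Hochberg adjustment, 0 of the 23152 genes passed an adjusted p of 0.05, a background of 0%. Without adjustment, 444 genes with p under 0.05 had a higher and 558 a lower mean in MKO. At any p, 53.4% of all genes and 52.1% of all probe sets had a lower mean in MKO. The counts of lower genes and probe sets given below stand beside these shares.

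Nr4a1 was lower in MKO in every probe set. Its gene value was 7.96, 7.80 and 7.99 in the MKO arrays, against 8.28, 8.82 and 8.52 in the WT arrays. No MKO array reached the lowest WT array, and 0.29 log2 units separated the nearest pair. The means were 7.92 ± 0.10 in MKO and 8.54 ± 0.27 in WT (SD, n = 3 each), a difference of −0.62 (SE 0.13), which is a 1.54-fold lower value. Over all genes, 4.99% had MKO arrays that all lay below the lowest WT array, and since Nr4a1 was chosen with this contrast known, nothing is read from its place among them. In bulk muscle RNA, fewer cells that make a transcript and less transcript per cell cannot be told apart.

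All 8 Nr4a1 probe sets were above the median of the array on all 6 arrays. Their differences ran from −0.89 to −0.32, with a median of −0.66. In 6 of them the MKO arrays all lay below the WT arrays, where 5.21% of all probe sets did so. Probe set 17315181, which had the lowest difference, read 7.39, 6.99 and 7.48 in MKO, against 7.85, 8.34 and 8.35 in WT. The brightest separated probe set, 17315182, read 8.82, 8.73 and 8.49 in MKO, against 9.04, 9.62 and 9.36 in WT. The groups overlapped in 2 probe sets. In 17315179, MKO replicate 1 (8.01) lay above WT replicate 1 (7.90), and in 17315184, 2 MKO arrays at 8.77 and 8.76 lay above WT replicate 3 at 8.54. The probe sets followed each other across the arrays, with a Pearson r between 0.64 and 0.97 for each against the mean of the others (median 0.93, 6 arrays). These r include the group difference.

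Nr4a2 had the larger difference and the larger scatter. Its gene value was 5.34, 5.0 and 5.29 in the MKO arrays, against 5.38, 6.25 and 7.06 in the WT arrays. The MKO arrays lay close together while the WT arrays spanned 1.68 log2 units, and WT replicate 1 was only 0.037 above the highest MKO array. The means were 5.21 ± 0.18 in MKO and 6.23 ± 0.84 in WT (SD, n = 3 each), a difference of −1.02 (SE 0.30), or 2.03-fold lower. Without WT replicate 3 the difference was −0.61 (SE 0.23), and without WT replicate 1 it was −1.45 (SE 0.22).

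All 12 Nr4a2 probe sets had a lower mean in MKO, where 52.1% of all probe sets did so. Their differences ran from −2.12 to −0.24, but the groups were apart in 2 of them. Over all probe sets, 5.21% had every MKO array below every WT array. Probe set 17385382 read 3.89, 4.19 and 5.19 in MKO, against 5.70, 6.37 and 7.56 in WT, a difference of −2.12 (SE 0.52). Probe set 17385381 read 6.36, 6.16 and 6.64 in MKO, against 6.93, 7.61 and 9.24 in WT, a difference of −1.54 (SE 0.49). In the other 10 the arrays of the groups overlapped. WT replicate 3 was the highest WT array in 10 of the 12 probe sets and WT replicate 1 the lowest in 10, so the order among the WT mice was shared over the transcript. Probe set 17385388 departed from it, with 6.31, 6.43 and 6.82 in MKO, against 7.25, 6.06 and 6.97 in WT. Only 5 probe sets lay above the array median on all arrays. Their mean was 5.99, 5.93 and 6.31 in MKO, against 6.39, 6.61 and 7.74 in WT, with a difference of −0.84 and no overlap, while the mean of the other 7 differed by −1.15 and overlapped.

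Nr4a3 did not share the lower values of its relatives. Its gene value was 4.79, 4.54 and 4.69 in the MKO arrays, against 4.19, 4.95 and 4.32 in the WT arrays. All MKO arrays lay inside the WT range, above WT replicates 1 and 3 and below WT replicate 2. The means were 4.67 ± 0.12 in MKO and 4.48 ± 0.41 in WT (SD, n = 3 each), a difference of 0.19 (SE 0.20), or 1.14-fold higher. The sign did not turn when any single array was left out, but the size depended on the WT arrays, at 0.04 without WT replicate 1 and 0.42 without WT replicate 2.

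The 12 Nr4a3 probe sets were split, with 5 lower and 7 higher in MKO, between −0.66 and 0.99. Probe set 17413946 was the one with every MKO array above every WT array, where 4.69% of all probe sets did so. It read 5.16, 6.0 and 5.64 in MKO, against 3.89, 4.92 and 5.02 in WT. Probe set 17413948 was the one with every MKO array below every WT array, where 5.21% of all probe sets did so. It stood at 1.91, 1.97 and 1.87 in MKO and 2.21, 2.40 and 2.03 in WT, and was below the array median on every array. The 4 probe sets above the array median on all arrays, 2 of them higher and 2 lower, had a mean of 6.68, 6.42 and 6.53 in MKO, against 5.90, 6.80 and 6.66 in WT. The brightest of them, 17413951, read 8.15, 7.12 and 7.40 in MKO, against 6.88, 7.31 and 7.59 in WT, with overlap. The probe sets agreed less with one another than those of Nr4a1. Each probe set against the mean of the others gave r between −0.19 and 0.86 (median 0.39, 6 arrays).

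**Figure D1:**
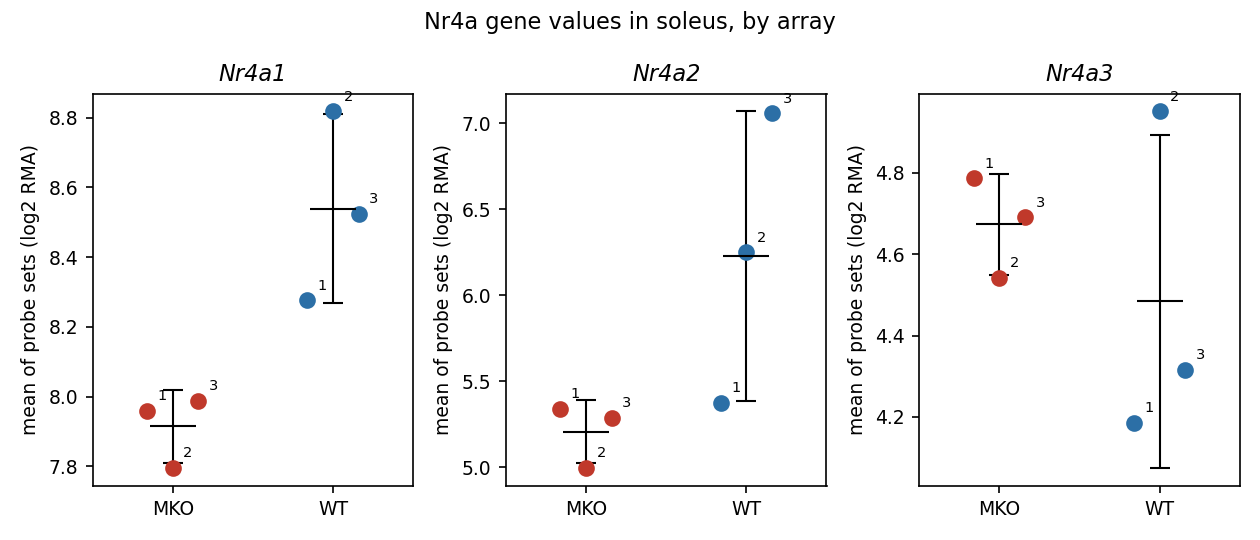
Gene values of Nr4a1, Nr4a2 and Nr4a3 (mean over the probe sets, log2 RMA, vertical axes that do not start at 0) for the 3 MKO arrays in red and the 3 WT arrays in blue, with replicate numbers, means (long ticks) and SD (bars). The groups are apart for Nr4a1, apart by 0.037 for Nr4a2, and overlap for Nr4a3, where the MKO arrays lie within the WT range.

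**Figure D2:**
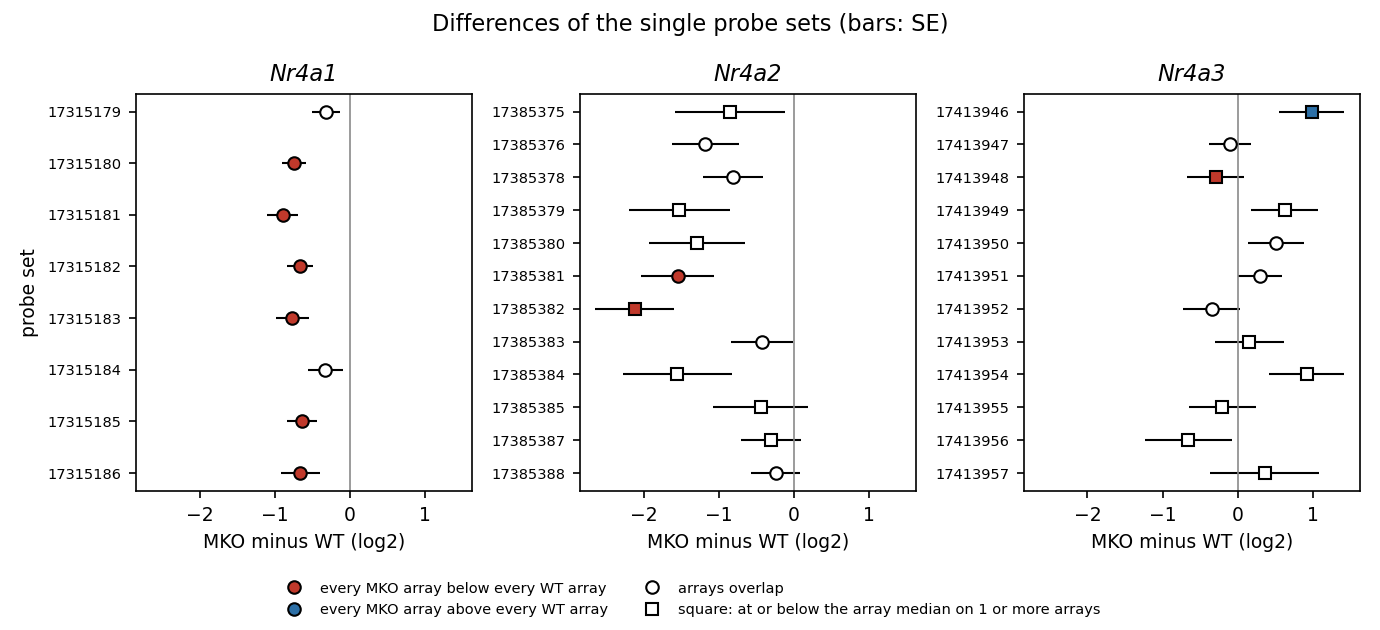
Difference MKO minus WT (log2) with SE for each of the 8, 12 and 12 probe sets of Nr4a1, Nr4a2 and Nr4a3. Filled points have groups that do not overlap (6, 2 and 2 probe sets) and squares mark probe sets at or below the array median on 1 or more arrays; all Nr4a1 and Nr4a2 points lie left of 0, and the Nr4a3 points lie on either side.

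Setting the members against each other within each array removes what an array does to all of them alike. Nr4a3 minus Nr4a1, centred on its WT mean, was 0.88, 0.80 and 0.76 in the MKO arrays, against −0.03, 0.19 and −0.15 in the WT arrays. The groups did not overlap (SD 0.063 in MKO and 0.17 in WT, n = 3 each). Nr4a3 minus Nr4a2 was 1.19, 1.29 and 1.15 in MKO, against 0.56, 0.44 and −1.0 in WT, again without overlap. Nr4a2 minus Nr4a1 was −0.31, −0.49 and −0.39 in MKO, against −0.59, −0.26 and 0.85 in WT, and overlapped. These contrasts come from the values that chose the family and carry no test.

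Inside the groups, the WT arrays ranked alike for Nr4a1 and Nr4a3, and MKO replicate 2 was the lowest MKO array for both, whereas MKO replicates 1 and 3 changed places. As deviations from the group mean, Nr4a1 stood at 0.045, −0.12 and 0.074 in MKO replicates 1 to 3 and at −0.26, 0.28 and −0.015 in WT replicates 1 to 3. Nr4a3 stood at 0.11, −0.13 and 0.018 in MKO and at −0.30, 0.47 and −0.17 in WT. The r of these deviations was 0.94 over the 6 arrays, which share 2 fitted means, whereas the r of the undivided values was 0.10. For Nr4a1 and Nr4a2 the r was 0.80 over the 6 arrays and 0.51 for the deviations. For Nr4a2 and Nr4a3 it was −0.11 and 0.23. WT replicate 2 had the highest Nr4a1 and Nr4a3 values, while WT replicate 3 had the highest Nr4a2 value. WT replicate 1 was lowest among WT arrays for all 3 genes.

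In their gene values, all 3 members varied less among MKO mice than among WT mice. Most single probe sets did so as well. Some of each member had the larger SD in MKO, among them the brightest Nr4a3 probe set, 17413951. The values that follow are for the gene values. The ratio of the WT to the MKO SD was 2.62 for Nr4a1, 4.55 for Nr4a2 and 3.34 for Nr4a3, while 40.7% of all genes had a larger SD in WT than in MKO. Among MKO arrays the SD of the members was larger than that of 20.5%, 48.6% and 27.1% of genes in the order Nr4a1, Nr4a2 and Nr4a3. Among WT arrays their SD was larger than that of 81.9%, 99.8% and 95.5% of genes. An SD of 3 mice is imprecise, and no test was made of this ratio.

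The other nuclear receptors were set beside the family. Of 46 listed receptor genes outside it, 44 were measured. In the order of differences over these and the members, Nr4a2 and Nr4a1 took the first and the second place from the low end. Nr4a3 was the 4th from the high end of 47. Nr4a1 and Nr4a2 were chosen for their low differences, so nothing is read from their places. Of the 44, 26 were lower and 18 higher in MKO, with a median of −0.02 against −0.014 over all genes. By limma, 0 passed the adjusted threshold, and 3 lower and 0 higher genes had an unadjusted p under 0.05. Over all 23152 genes, 558 were lower and 444 higher at that p. In 4 of the 44 receptors, or 9.1%, the MKO arrays all lay below the WT arrays, against 4.99% of all genes. These were Nr1d1 (REV-ERBα, a repressor of the circadian clock, −0.33, SE 0.10), the retinoic acid receptor Rarb (−0.35, SE 0.15), the orphan receptor Nr2c2 (−0.10, SE 0.11) and the oestrogen receptor Esr2 (−0.29, SE 0.16), which was below the array median on every array. Nr1d1 read 8.59, 8.61 and 8.44 in MKO, against 8.85, 9.06 and 8.71 in WT (limma adjusted p = 1). The vitamin D receptor Vdr (−0.40, SE 0.17) overlapped and was dim. In 2 receptors every MKO array lay above every WT array, where 4.26% of all genes did so: Ppara, a receptor for fatty acids (0.25, SE 0.14), and Esrrg, an oestrogen-related receptor of oxidative muscle (0.18, SE 0.12). In WT SD, Nr4a2, Nr4a3 and Nr4a1 ranked 1, 2 and 6 of the 47 receptors.

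**Figure D3:**
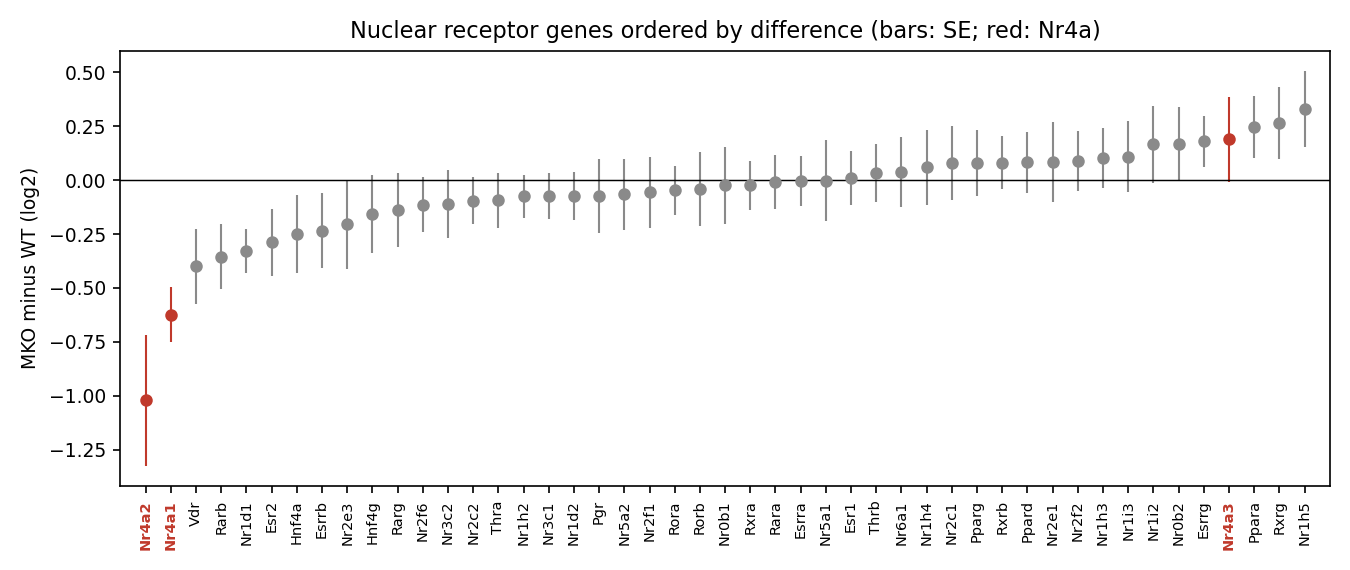
Difference MKO minus WT (log2) with SE for the 47 measured nuclear receptor genes, ordered from lowest to highest, with the Nr4a genes in red. Nr4a2 (−1.02) and Nr4a1 (−0.62), which were chosen for their low differences, lie at the low end, and Nr4a3 (0.19) is the 4th from the high end.

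The 2 lists of signalling genes upstream of the family each had a median of −0.05. Nr4a1 and Nr4a2 were chosen for their low differences, so the size of the list differences is not compared with theirs. Of 22 measured genes of cAMP and CREB signalling, 14 were lower and 8 higher, with a median of −0.05. By limma, 0 passed the adjusted threshold and 0 had an unadjusted p under 0.05. The cAMP phosphodiesterase Pde4b (−0.27, SE 0.16), the stimulatory G protein Gnas (−0.15, SE 0.13) and Pde4d (0.15, SE 0.13) overlapped between the groups. The protein kinase A subunit Prkacb was the 1 gene of this list with separated arrays (4.5%, against 4.99% of all genes with the MKO arrays lower, so this share is at the background), at 5.89, 5.92 and 5.95 in MKO, against 6.03, 6.12 and 6.04 in WT (−0.14, SE 0.12, limma adjusted p = 1). The median of the list was 0.05 without MKO replicate 1, −0.02 without WT replicate 1 and −0.08 without WT replicate 3. Of 23 genes of calcium, MEF2 and SRF signalling, 19 (82.6%, against 53.4% of all genes) were lower and 4 higher, with a median of −0.05. Again 0 passed by limma, and 1 (Ppp3r1) had an unadjusted p under 0.05, where 444 of 23152 genes were higher at that p. The median of the calcium list ranged from −0.11 to −0.02 over the alternatives. Ppp3r1, the regulatory subunit of the calcium-activated phosphatase calcineurin, lay on the high side in every MKO array, at 5.76, 5.79 and 5.77 in MKO, against 5.51, 5.28 and 5.27 in WT (0.42, SE 0.13, limma adjusted p = 1). Ppp3r1 was the 1 gene of the 23 with separated arrays, against 4.26% of all genes with the MKO arrays higher, so this share is near the background. The catalytic partner of Ppp3r1, Ppp3cb (−0.18, SE 0.11), the coactivator of serum response factor Mkl2 (−0.20, SE 0.12) and the calcium-dependent kinase Camk2d (−0.25, SE 0.17) overlapped.

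Partners and reported downstream genes of the family had list medians near 0. Of 17 measured partners and cofactors, 8 were lower and 9 higher, with a median of 0.02 and no separated arrays. By limma, 0 passed the adjusted threshold and 0 had an unadjusted p under 0.05. The retinoid X receptor Rxrg (0.26, SE 0.17), the corepressor Rcor1 (0.14, SE 0.12), the metabolic coactivator Ppargc1a (0.19, SE 0.17) and Bcl2 (−0.13, SE 0.16), an apoptosis inhibitor that Nr4a1 protein can bind, had the smallest p. Of 14 measured glucose and glycogen genes linked to Nr4a1 in muscle, 11 (78.6%, against 53.4% of all genes) were lower, with a median of −0.04. By limma, 0 passed and 0 had an unadjusted p under 0.05. Pfkm, the muscle phosphofructokinase, was the 1 gene of this list (7.1%, against 4.99% of all genes) with lower, separated arrays, at 9.70, 9.79 and 9.85 in MKO, against 9.98, 9.92 and 9.86 in WT (−0.14, SE 0.08). The insulin-responsive glucose transporter Slc2a4 read 9.09, 8.99 and 8.86 in MKO, against 9.11, 9.24 and 9.07 in WT (−0.16, SE 0.09), and overlapped by MKO replicate 1. Gpi1 (−0.11, SE 0.07) and the hexokinase Hk2 (−0.14, SE 0.09) overlapped. Of 15 lipid and energy genes, 7 were lower and 8 higher, with a median of 0.0022. By limma, 0 passed, and 2 (Pdk4 and Ucp3) had an unadjusted p under 0.05, where 444 of 23152 genes were higher at that p. The arrays were apart in 2 genes with lower MKO values, against 4.99% of all genes, and in 2 with higher MKO values, against 4.26% of all genes. Ucp2 (−0.22, SE 0.12) and the fatty acid binding protein Fabp3 (−0.15, SE 0.12) lay on the low side in every MKO array. Pdk4, which restrains pyruvate oxidation (0.16, SE 0.06), and the medium-chain dehydrogenase Acadm (0.07, SE 0.06) lay on the high side. The uncoupling protein Ucp3 (0.41, SE 0.17) and the growth factor Igf1 (−0.28, SE 0.17) overlapped. The medians of the glucose and lipid lists changed sign under 3 and 6 of 11 alternatives.

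Other genes that CREB is known to induce acutely lay on both sides of 0, with the larger differences on the low side. Of 20 measured, 12 (60%, against 53.4% of all genes) were lower and 8 higher in MKO, with a median of −0.33 against −0.014 over all genes. The list mean, relative to WT, was −0.10, −0.32 and −0.13 in MKO, against −0.11, 0.14 and −0.03 in WT, and overlapped. By limma, 0 passed the adjusted threshold, and 8 lower and 0 higher genes had an unadjusted p under 0.05. At that p, 558 of all 23152 genes were lower and 444 higher. The CREB list includes immediate early genes already seen to be lower in these arrays, so its counts are not independent evidence. In 4 of the 20 listed genes (20%, against 4.99% of all genes) the MKO arrays all lay below the WT arrays. The AP-1 member Fosl2 read 6.34, 6.07 and 6.52 in MKO, against 6.64, 6.87 and 6.92 in WT (−0.50, SE 0.14). Its relative Junb read 6.19, 6.02 and 6.06 in MKO, against 6.63, 6.43 and 6.43 in WT (−0.41, SE 0.12). Btg2, an antiproliferative gene, differed by −0.37 (SE 0.13), and the small GTPase Gem by −0.34 (SE 0.16). The lowest difference was that of Egr1, at 5.61, 5.24 and 5.68 in MKO, against 6.43, 6.99 and 5.29 in WT (−0.73, SE 0.31), and it overlapped because of WT replicate 3. Fos overlapped as well (−0.53, SE 0.19). On the other side lay Nfil3, a clock-linked repressor (0.26, SE 0.19), the insulin receptor substrate Irs2 (0.25, SE 0.21), Crem (0.19, SE 0.18), Ppargc1a (0.19, SE 0.17) and the phosphatase Dusp1 (0.01, SE 0.08), all with overlap. No gene of this list had every MKO array above every WT array. The salt-inducible kinase Sik1, at 8.31, 8.06 and 8.51 in MKO and 8.30, 8.72 and 8.98 in WT (−0.37, SE 0.16), had its highest value in WT replicate 3, as Nr4a2 did. Without WT replicate 2, the WT array with the highest list mean, the list median was −0.16, and with only bright probe sets it was −0.20.

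**Figure D4:**
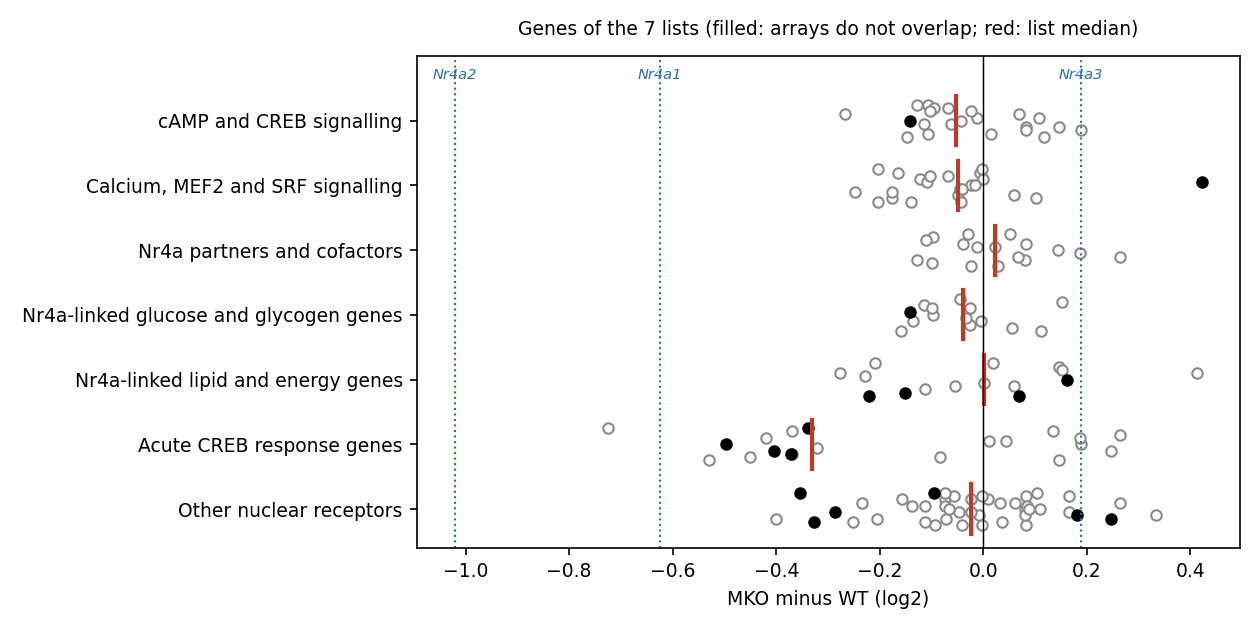
Difference MKO minus WT (log2) of each measured gene in the 7 gene lists, with list medians in red and the Nr4a members as dotted lines. The median of the acute CREB response genes is −0.33 and the other list medians lie between −0.05 and 0.02.

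The genes most like each member over the 6 arrays were sought among 10152 genes with at least 3 probe sets and a level above the median gene. With this many candidates and 6 arrays, high r are found for any gene: 109 candidates had r above 0.9 with Nr4a1, 32 with Nr4a2 and 22 with Nr4a3. Nearest to Nr4a1 were Dact2 (r = 0.989), the transferrin receptor Tfrc (0.987), the splicing regulator Srrm4 (0.985) and Plekha2 (0.981). Tfrc had a difference like that of Nr4a1, at 6.84, 6.84 and 7.03 in MKO, against 7.44, 8.01 and 7.68 in WT (−0.80, SE 0.14, limma adjusted p = 0.531), and an r of 0.95 for the deviations from the group means. Dact2 (−0.19, SE 0.14), Srrm4 (−0.25, SE 0.14) and Plekha2 (−0.11, SE 0.13) had the same order of WT arrays as Nr4a1 and their lowest value in MKO replicate 2, but MKO replicate 1 lay above MKO replicate 3 in all of them. Nearest to Nr4a2 were Hmgn3 (r = 0.983), the heparan sulfate enzyme Hs6st1 (0.974), the forkhead factor Foxn3 (0.972) and Cables2 (0.972), with differences between −0.26 and −0.10. Nearest to Nr4a3 were the phosphatase Dusp18 (r = 0.989), the palmitoyltransferase Zdhhc23 (0.969), Ldlrad3 (0.964) and the exosome subunit Exosc10 (0.960), with differences between 0.05 and 0.11.

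Markers of the cell types in the muscle were set beside these values, because Nr4a genes are also induced in vessel and immune cells. Muscle fibre markers were bright and similar in the groups, with 6 of 10 lower and a median of −0.01, and the slow myosin Myh7 read 10.94, 10.92 and 10.93 in MKO, against 10.99, 10.90 and 11.21 in WT. Endothelial markers were lower in 10 of 10 genes, where 53.4% of all genes were lower, with a median of −0.10 that depended on single arrays. This endothelial median was −0.02 without MKO replicate 1, −0.22 without MKO replicate 3, −0.01 without WT replicate 2 and −0.25 without WT replicate 3. Their list mean, relative to WT, was −0.32, −0.21 and −0.02 in MKO, against −0.01, 0.20 and −0.18 in WT, and overlapped. The tight junction gene Cldn5 was the 1 endothelial marker with separated arrays (10%, against 4.99% of all genes with the MKO arrays lower). Its difference was −0.73 (SE 0.15, limma adjusted p = 0.666). WT replicate 2 had the highest endothelial mean and the highest Nr4a1 value, whereas WT replicate 3 had the lowest WT endothelial mean and the highest Nr4a2 value. Macrophage markers were lower in 10 of 12, with a median of −0.11, a list mean of −0.26 to −0.03 in MKO and −0.09 to 0.13 in WT, and 4 of them (Emr1, Cd14, Fcgr1 and Ccr2) at or below the array median on every array. Their median was −0.05 without MKO replicate 1, −0.01 without WT replicate 1 and −0.17 without either WT replicate 2 or WT replicate 3. Ccr2 was the 1 of the 12 macrophage markers that lay higher in every MKO array (0.30, SE 0.16), where 4.26% of all genes did so. The macrophage lysosomal marker Cd68 read 5.24, 5.58 and 6.06 in MKO, against 6.36, 7.08 and 5.89 in WT. Fibroblast markers were lower in 7 of 8 (median −0.24), with list means of −0.48 to 0.03 in MKO and −0.16 to 0.10 in WT. That median was −0.10 without MKO replicate 1 and −0.12 without WT replicate 2. All 8 measured T and B cell markers were at or below the array median on every array, and 7 were higher in MKO, with list means of 0.09 to 0.27 in MKO and −0.08 to 0.06 in WT. Cd3g and Cd2, 2 of these 8, lay higher in every MKO array, where 4.26% of all genes did so. The T and B cell median of 0.11 was 0.0009 without WT replicate 2. Schwann cell markers were higher in 4 of 4 (0.09 to 0.21 in MKO and −0.02 to 0.03 in WT), and 3 of them were dim. With only bright probe sets the Schwann cell median was −0.04. Smooth muscle markers (4 of 7 lower, median −0.02), mast cell and granulocyte markers (3 of 6, 0.04), adipocyte markers (3 of 6, −0.05), satellite cell markers (3 of 5, −0.05) and red cell markers (2 of 2, −0.37) had list means that overlapped between the groups. In these lists, 1 smooth muscle marker, Cspg4, lay lower in every MKO array, against 4.99% of all genes. The smooth muscle marker Tagln and the dim granulocyte marker S100a8 lay higher in every MKO array, against 4.26% of all genes. Over the alternatives the adipocyte median ranged from −0.35 to 0.21 and the satellite cell median from −0.12 to 0.17. The red cell median was −0.23 without WT replicate 1. No marker passed the adjusted threshold. The part of these cell types in the Nr4a values was not tested.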

How the data were processed

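The authors deposited log2 values for 269751 rows and 6 arrays. TRIzol RNA was hybridised to Affymetrix whole-transcript mouse arrays, per the labels' protocols, and the values come from RMA in Affymetrix Expression Console, per the submitters' processing notes. The sources used here give no software versions or genome build. Of the rows, 233753 carried exactly 1 symbol in the platform's old annotation and were averaged per gene (median 8 probe sets). Depth has no meaning for arrays, and 3 arrays per group limit the precision.

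The difference of MKO and WT was estimated for every gene in limma 3.58.1 under R 4.3.3, using lmFit and eBayes with a variance trend. Tests were two-sided, and p-values were adjusted by the Benjamini-Hochberg method over 23152 genes. Each SE comes from this fit, or from the same fit over the probe sets. The local pooled error test named in the labels was not used, because it leaves out a gene's own spread. The fit was tested on simulated data. The members and lists were chosen with earlier results of these data known. Of 163 list entries 155 were matched, and of 84 marker entries 78. Named were all member probe sets, the 4 genes most like each member, and the 4 (gene lists) or 3 (marker lists) genes with the smallest p, of which only the markers that a sentence needed are printed; other genes were named after their values were seen, mainly those with separated arrays. Alternatives were quantile normalization, median centring, the median of probe sets, bright probe sets only, each array left out, the replicate number as a block, limma without trend or with robust moderation, and only genes above the median level. The counts of lower probe sets without each array were added after seeing the data. Figures were drawn with Python 3.11.15.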

Additional observations from a re-analysis of the deposited data

How the results depend on the processing

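The differences of Nr4a1, Nr4a2 and Nr4a3 kept their sign and moved by less than 1 replicate SD under each of 11 alternatives. They ranged from −0.76 to −0.48 for Nr4a1, from −1.45 to −0.61 for Nr4a2 and from 0.04 to 0.47 for Nr4a3, where the upper end is the median of the probe sets. With each array left out, all 8 Nr4a1 probe sets and 11 to 12 of the 12 Nr4a2 probe sets were lower in MKO, and 5 to 6 of the 12 Nr4a3 probe sets. The number of genes past the adjusted threshold was 0 under the other alternatives and between 0 and 1 with an array left out. Rrad passed without WT replicate 3 (adjusted p = 0.0365) and an immunoglobulin kappa segment without WT replicate 1 (adjusted p = 0.0153). With the replicate number as a block (replicate block) the differences were again −0.62, −1.02 and 0.19, with SE 0.13, 0.25 and 0.21, and 0 genes passed. The correlations of same-numbered arrays' deviations were −0.09, 0.09 and −0.24, so the numbers were not taken as pairs. Of 198 recomputed list medians 7 moved by over 1 SD, and the medians of 11 of 18 lists changed sign under at least 1 alternative. The number of arrays limits the precision, and the dim probe sets of Nr4a2 and Nr4a3 limit it further.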
